A study of Mus musculus with 6 samples.

Results

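Genes known for alternatively activated macrophages, Retnla, Chil3, Mmp12, Arg1, Mrc1, Clec10a and Clec7a, were followed in RNA of CD4+ T cells sorted from mouse lung. They were taken by name, as 7 of the 22180 genes measured, after differences between the groups were known. Lung cells came from wild-type (WT) mice that had been sensitised and challenged with house dust mites (HDM), an allergen source that provokes allergy in the airways, or with PBS, a buffered saline used as the control. CD45+ CD4+ cells that lacked CD11b and F4/80, surface proteins of myeloid cells encoded by Itgam and Adgre1, were collected by flow cytometry. Their RNA was hybridised to Affymetrix Mouse Gene 2.0 ST arrays, which read transcripts with many short probes, with 3 arrays per group, which the labels call biological replicates. The sources used here do not give the mouse strain, age, dose or number of mice behind each array, and p-values set differences against the spread between these arrays. Signals are RMA values on the log2 scale, so a difference of 1 stands for a doubling, and array medians lay between 6.57 and 6.64. Precision is limited by having 3 arrays a group. The sorted samples are bulk RNA, in which fewer cells of a type and less RNA per cell cannot be told apart.

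Macrophages that meet interleukin 4 or interleukin 13 take on a state called alternative activation. The cytokines bind receptors that share the chain encoded by Il4ra and activate the transcription factor STAT6, which turns on a set of secreted proteins, enzymes and lectin receptors. In allergic lung the cytokines come largely from T helper 2 cells and innate lymphoid cells, and the response is known for handling parasites and chitin and for tissue repair. Of the 7 genes, Retnla (a small secreted resistin-like protein), Chil3 (the chitinase-like protein Ym1), Mmp12 (macrophage elastase) and Arg1 (arginase 1, which turns arginine into ornithine and urea) encode effector products. Mrc1 (the mannose receptor), Clec10a (a galactose-type lectin) and Clec7a (Dectin-1, a receptor for fungal beta-glucan) encode surface receptors.

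RefSeq promoters (GRCm38.p6, 250 bases before to 50 after a transcript's start) were found for 5 of the 7 genes, and not for Arg1 and Clec10a. They were searched on both strands for TTCNNNNGAA, the spacing that STAT6 prefers, and for TTCNNNGAA, the spacing of other STAT factors. The promoters of Retnla and Clec7a, 2 of the genes whose HDM and PBS signals did not overlap, are shown because each held the STAT6 spelling, and Chil3 is shown beside its close relative Chil4, since these promoters resemble each other while their patterns over the HDM arrays differed. In the 4 windows shown, no STAT spelling overlaps the C/EBP spelling given below. Each line runs 5′ to 3′ from 250 bases before the start to 20 after it, 270 bases, with STAT spellings in capitals.
Retnla, chr16:48842359-48842628, plus strand: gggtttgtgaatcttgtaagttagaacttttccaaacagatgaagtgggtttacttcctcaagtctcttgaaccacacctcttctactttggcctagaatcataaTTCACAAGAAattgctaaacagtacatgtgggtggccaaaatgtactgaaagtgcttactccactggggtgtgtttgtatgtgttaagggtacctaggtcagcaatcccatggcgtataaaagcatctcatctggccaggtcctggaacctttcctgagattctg
Clec7a, chr6:129472760-129473029, minus strand: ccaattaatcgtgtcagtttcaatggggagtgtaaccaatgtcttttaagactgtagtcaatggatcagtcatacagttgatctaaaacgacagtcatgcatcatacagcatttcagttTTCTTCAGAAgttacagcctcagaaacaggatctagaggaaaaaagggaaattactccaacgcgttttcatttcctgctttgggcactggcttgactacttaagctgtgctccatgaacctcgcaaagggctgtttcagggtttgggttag
Chil3, chr3:106167545-106167814, minus strand: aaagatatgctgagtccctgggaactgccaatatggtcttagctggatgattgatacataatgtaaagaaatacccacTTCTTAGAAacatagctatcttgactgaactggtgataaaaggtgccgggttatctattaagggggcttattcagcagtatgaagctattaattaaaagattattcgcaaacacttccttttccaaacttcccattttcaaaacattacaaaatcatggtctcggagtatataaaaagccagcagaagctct
Chil4, chr3:106219460-106219729, minus strand: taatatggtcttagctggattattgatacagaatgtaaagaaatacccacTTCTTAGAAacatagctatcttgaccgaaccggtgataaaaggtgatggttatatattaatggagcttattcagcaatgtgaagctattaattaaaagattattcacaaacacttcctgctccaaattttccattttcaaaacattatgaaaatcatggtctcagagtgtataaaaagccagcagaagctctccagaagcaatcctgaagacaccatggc
The STAT6 spelling lay at −145 to −136 from the start of Retnla and at −131 to −122 from the start shown for Clec7a, on the base count in which −1 is the last base before the start. From another RefSeq start of Clec7a, not shown, the same match lay at −125 to −116. The STAT6 spelling is found in 6.95% of 32851 promoters of this length. Chil3 and Chil4 held the shorter spelling, which 8.3% of promoters hold, at −172 to −164 and at −200 to −192 from their starts. Their full windows of 300 bases were aligned with free ends, so not start to start. They had 251 identical bases of 271 aligned (92.6%), with 2 gap positions not counted. In Retnla a C/EBP spelling, TTNNGNAA, lay at −134 to −127, next to the STAT6 spelling, and 40.7% of all promoters hold that pattern. The windows of Mmp12 and Mrc1 held neither STAT spelling. These matches describe letters in the windows and say nothing about binding.

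The secreted products carried the widest differences between HDM and PBS arrays. Retnla had signals of 5.84, 5.81 and 5.0 in PBS replicates 1, 2 and 3 and of 9.67, 10.74 and 7.81 in the HDM replicates. The groups did not overlap, HDM replicate 3 was the lowest of its group and PBS replicate 3 the lowest of all. The difference of the means was 3.85 (SE 0.65, n = 3 per group), 14.5-fold, and it was 3.19 without HDM replicate 2 and 4.65 without HDM replicate 3. Chil3 had 9.63, 9.39 and 8.42 in PBS and 11.61, 11.63 and 10.52 in HDM. Its groups also stayed apart, with a difference of 2.11 (SE 0.38) or 4.30-fold, and in each group the array numbered 3 was the lowest, at −1.09 from the mean of the other PBS arrays and −1.10 from the mean of the other HDM arrays.

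Mmp12, the elastase, had 6.75, 6.54 and 6.31 in PBS and 10.11, 9.58 and 7.68 in HDM. The HDM values lay above all PBS values but spread over 2.43, with HDM replicate 3 lowest, and the difference was 2.59 (SE 0.54), 6.01-fold, or 2.09 without HDM replicate 1 and 3.31 without HDM replicate 3. Arg1, the arginase, had 6.96, 6.49 and 6.47 in PBS and 9.03, 8.74 and 6.82 in HDM. Here HDM replicates 1 and 2 were above all PBS arrays, while HDM replicate 3 lay below PBS replicate 1, so the groups overlapped. The difference of 1.56 (SE 0.51), 2.95-fold, became 1.14 without HDM replicate 1 and 2.25 without HDM replicate 3.

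The lectin receptors differed less and did not share 1 pattern. Clec7a, Dectin-1, had 8.38, 8.55 and 9.03 in PBS and 10.07, 9.66 and 9.97 in HDM. The groups did not overlap, and HDM replicate 3 was not the lowest of its group, unlike in the secreted products. Its difference was 1.25 (SE 0.18), 2.38-fold. Mrc1, the mannose receptor, had 7.95, 7.78 and 7.85 in PBS and 8.69, 8.02 and 7.94 in HDM. Only HDM replicate 1 stood clearly above the rest, HDM replicate 3 lay just under PBS replicate 1, and the difference was 0.36 (SE 0.19). Clec10a had 4.77, 4.59 and 4.79 in PBS and 4.61, 5.13 and 4.86 in HDM, with overlapping groups and a difference of 0.15 (SE 0.13).

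**Figure D1:**
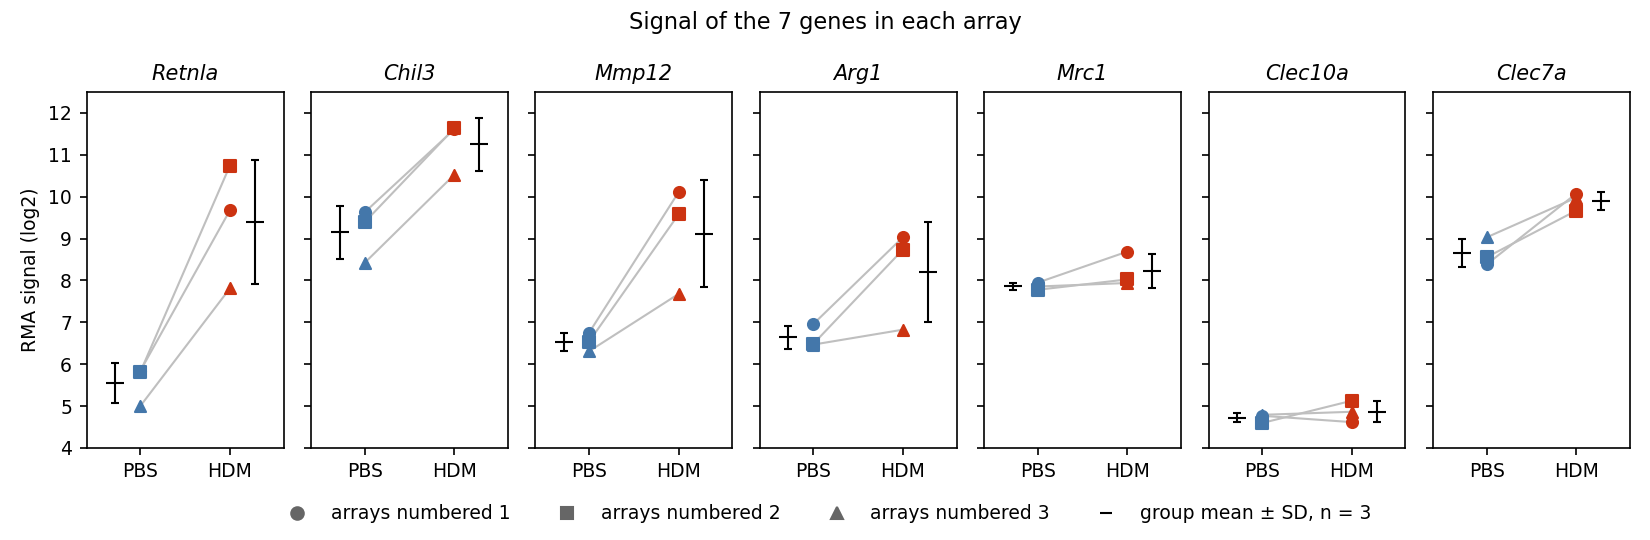
Signal (log2, vertical axis) of each of the 7 genes in the 3 PBS and 3 HDM arrays; marker shapes give the array number, grey lines join same-numbered arrays, and black bars give the group mean ± SD (n = 3). In Retnla, Chil3, Mmp12 and Clec7a every HDM value lies above every PBS value, while Arg1, Mrc1 and Clec10a overlap.

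The groups stayed apart, with HDM higher, in 4 of the 7 genes, where 10.8% of all genes did. The same 4, Retnla, Chil3, Mmp12 and Clec7a, were past an adjusted p of 0.05 with limma, as 2.39% of all genes were in that direction and 3.95% in either. With the replicate number as a block 5 were, Arg1 among them, beside 5.95% of all genes in that direction and 12.0% in either. The genes were chosen on this contrast, so these counts describe the choice and test nothing. The count ran from 0, without HDM replicate 1 or without PBS replicate 2, to 5 without HDM replicate 3, and it was 1 without HDM replicate 2 or PBS replicate 1 and 2 without PBS replicate 3. Every gene of the 7 had 1 probe set with a single gene symbol, and 6 had a mean signal over the 6 arrays above the median of all genes. The exception was Clec10a, whose mean also fell under the 25th percentile of genes. The HDM arrays raise these means. In PBS alone the mean was 5.55 for Retnla and 6.53 for Mmp12, below the array medians of 6.57 to 6.64.

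Differences between same-numbered arrays separated the genes further. Retnla differed by 3.83, 4.92 and 2.81 in the pairs numbered 1, 2 and 3, and Mmp12 by 3.36, 3.04 and 1.37. Chil3 differed by 1.98, 2.24 and 2.10, nearly the same in each pair, and its lower signal in the arrays numbered 3 was present in PBS and HDM alike. Arg1 differed by 2.07 and 2.25 in the pairs numbered 1 and 2 and by 0.36 in the pair numbered 3. Clec7a differed by 1.69, 1.11 and 0.95. Mrc1 gave 0.74, 0.25 and 0.08, and Clec10a, the only one of the 7 with a pair in which HDM was lower, gave −0.15, 0.53 and 0.07. Against the mean of HDM replicates 1 and 2, HDM replicate 3 differed by −2.40 in Retnla, −2.17 in Mmp12, −2.06 in Arg1, −1.10 in Chil3, −0.42 in Mrc1, −0.0081 in Clec10a and 0.11 in Clec7a.

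Across the 6 arrays Retnla, Chil3, Mmp12 and Arg1 varied together, with Pearson's r between 0.90 and 0.97 for their pairs, values that the group difference raises. Over deviations from the group means r was between 0.79 and 0.99 for the same pairs, highest for Mmp12 with Arg1. Clec7a had r between −0.71 and −0.19 with these genes over the deviations, all below 0. These values describe 6 arrays, which share their hybridisation and their cells between genes.

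**Figure D2:**
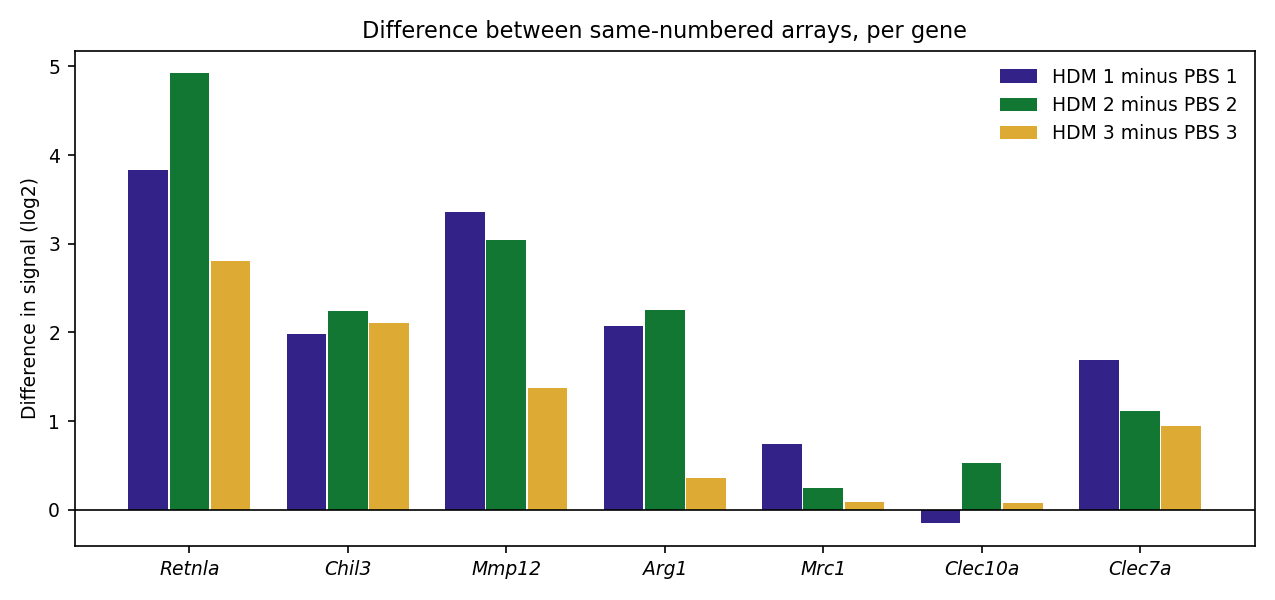
HDM minus PBS difference (log2, vertical axis) between arrays with the same number, 3 bars per gene for the pairs numbered 1, 2 and 3. Chil3 has 3 bars of similar height (1.98, 2.24 and 2.10), and Arg1 falls from above 2 in the first pairs to 0.36 in the pair numbered 3.

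Other genes of alternative activation followed in part. Of 26 measured genes of a list that holds further products, chemokines and receptors of these macrophages, 6 rose with limma at an adjusted p below 0.05, 0 fell (0 also at an unadjusted p below 0.05) and 20 did not pass. Over all genes 2.39% rose and 1.56% fell. The list's median difference was 0.38, beside −0.0063 over all genes. Cd200r1, an inhibitory receptor on myeloid cells and T cells, rose by 1.80 (SE 0.27, adjusted p = 0.0136), and Ccl17, a chemokine that attracts Th2 cells, rose by 1.26 (SE 0.11, adjusted p = 0.00249). Igf1, a growth factor that macrophages secrete, rose by 1.04 (SE 0.14, adjusted p = 0.00952), and Cdh1, the adhesion protein E-cadherin, rose by 0.82 (SE 0.15, adjusted p = 0.0292). With the mean of its probe sets Cdh1 differed by 0.45 and did not pass (adjusted p = 0.0742). The others that rose, named after their values were seen, were Pdcd1lg2, the PD-1 ligand PD-L2 (0.79), and Trem2, a lipid-sensing receptor of macrophages (0.64). With the replicate block 10 of the 26 rose, beside 5.95% of all genes. The count was 2 without HDM replicate 1, HDM replicate 2 or PBS replicate 2 and 10 without HDM replicate 3. Cdh1 and Trem2 kept the call without HDM replicate 3 and lost it without any other single array (adjusted p reaching 0.113 and 0.146), Cd200r1 without HDM replicates 1 or 2 or PBS replicate 2 (up to 0.0713), Pdcd1lg2 without HDM replicate 1 or 2 (up to 0.0548) and Igf1 without PBS replicate 2 (0.0606).

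Rnase2a, an eosinophil-associated ribonuclease whose older symbol is Ear11 and which alternatively activated macrophages are known to make, had the largest difference of this list. Its signals were 6.19, 5.81 and 5.03 in PBS and 10.04, 9.84 and 6.90 in HDM. The groups did not overlap and both arrays numbered 3 were the lowest of their groups, as in Retnla and Chil3. The difference of 3.25 (SE 0.77) did not pass with limma (adjusted p = 0.0611) and passed with the block (adjusted p = 0.00269) and without HDM replicate 3 (4.26, adjusted p = 0.000554).

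Chil4, which encodes the chitinase-like protein Ym2 and sits beside Chil3, was picked after its values were seen. It had 4.65, 4.48 and 4.58 in PBS and 6.79, 8.21 and 4.71 in HDM. HDM replicates 1 and 2 were far above PBS, while HDM replicate 3 was only just above the highest PBS array. In the pair numbered 3 Chil4 differed by 0.12, where Chil3 differed by 2.10. The Chil4 signals of PBS and of HDM replicate 3 were low, below the array medians of 6.57 to 6.64, and all Chil3 signals were above those medians. The Chil4 difference of 2.00 (SE 0.73) did not pass with limma (adjusted p = 0.196) or with the block (adjusted p = 0.0613), and it passed at 2.93 without HDM replicate 3 (adjusted p = 0.00383). The sources used here do not say how far probes of such close relatives read each other's transcripts. Ccl8 and Fn1, a chemokine and the matrix protein fibronectin, were likewise picked after their values were seen and differed by 1.71 (SE 0.42, adjusted p = 0.0708) and 1.12 (SE 0.26, adjusted p = 0.061) with limma, and both passed with the block (adjusted p = 0.0245 and 0.0206). Mgl2, the close relative of Clec10a and also picked after its values were seen, differed by −0.034 (SE 0.13), near its relative's small difference.

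Of 6 measured relatives of the chitinase-like and resistin-like families other than these, 1 fell and 5 did not pass. Chil5, a chitinase-like gene, fell by 0.83 (SE 0.18, limma adjusted p = 0.0489), against the direction of Chil3 and Chil4, and kept that call, of the 6 omissions of 1 array, only without HDM replicate 3 (adjusted p reaching 0.153), and it was also lost with all single-symbol probe sets tested (adjusted p = 0.052). The list's median was −0.051.

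The cytokines that induce the program and their signal chain moved in both directions. Of 16 measured genes, 5 rose and 2 fell with limma (2.39% of all genes rose and 1.56% fell), and the median was 0.024. With the block 7 rose and 3 fell, beside 5.95% and 6.01% of all genes. This added Egr2 and Tyk2 (adjusted p = 0.0295 and 0.015) to those that rose and Kdm6b (0.0233) to those that fell, named after their values were seen. Without the intensity trend 4 rose and 0 fell. Il13, a cytokine of Th2 cells, had 7.39, 7.52 and 7.18 in PBS and 10.98, 11.29 and 9.88 in HDM, with HDM replicate 3 lowest of its group, as in Retnla. It rose by 3.35 (SE 0.32, adjusted p = 0.00274). Il4, the cytokine that defines Th2 cells, had 5.98, 6.17 and 6.25 in PBS and 8.10, 8.35 and 6.80 in HDM, a rise of 1.62 (SE 0.35, adjusted p = 0.0489) whose call held without HDM replicate 3 and was lost on omitting any other array (adjusted p reaching 0.179). The Il4 call was also lost with repeated quantile normalization, median centring, averaged probe sets, all probe sets tested, robust variance or no intensity trend (adjusted p from 0.0501 to 0.0639). Pparg, a nuclear receptor used by Th2 cells and by alternatively activated macrophages, rose by 2.53 (SE 0.28, adjusted p = 0.00435), and Cish, a feedback inhibitor of cytokine signals, rose by 1.15 (SE 0.09, adjusted p = 0.00135). Irf4, a transcription factor of both cell types, rose by 1.01 and lost the call without HDM replicate 2, PBS replicate 1 or PBS replicate 3 (adjusted p of up to 0.105). The genes that fell were the receptor chain Il4ra (−0.77, adjusted p = 0.0421) and the kinase Jak1 (−0.29, adjusted p = 0.0299). Il4ra kept the call without HDM replicate 3 alone among the 6 omissions, and Jak1 lost it without any array numbered 1 or 2 (adjusted p reaching 0.172 and 0.14). Irf4, Il4ra and Jak1 were picked after their values were seen, as was Stat6, the factor itself, which differed by 0.0034 (SE 0.07, adjusted p = 0.989). T cells express much of this list themselves.

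Genes of arginine handling other than Arg1 gave few calls. Of 11 measured genes, 0 rose and 1 fell with limma, 1 was higher and 2 were lower at an unadjusted p below 0.05, and the median was 0.027. Oat, the ornithine aminotransferase, fell by 0.67 (SE 0.12, adjusted p = 0.0221) and lost the call without HDM replicate 1, HDM replicate 2, PBS replicate 2 or PBS replicate 3 (up to 0.12). With the block 1 rose and 2 fell, beside 5.95% and 6.01% of all genes. The gene that rose was Slc7a2, an arginine transporter (0.96, SE 0.36, adjusted p = 0.208, and 0.0196 with the block). Nos2, the nitric oxide synthase that competes for arginine, differed by 0.06 (SE 0.10, adjusted p = 0.834). Slc7a2 and Nos2 were picked after their values were seen.

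Of 14 measured C-type lectins of myeloid cells and their adaptors, 0 passed with limma in either direction, and 2 were higher and 0 lower at an unadjusted p below 0.05. With the block 2 rose, beside 5.95% of all genes. The median was 0.09, beside 1.25 for Clec7a itself. Clec4a3, an inhibitory lectin, differed by 0.88 (SE 0.30, adjusted p = 0.169, and 0.0121 with the block), and Clec4e, the receptor Mincle, by −0.67 (SE 0.74, adjusted p = 0.72), which turned to 0.17 without PBS replicate 3.

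**Figure D3:**
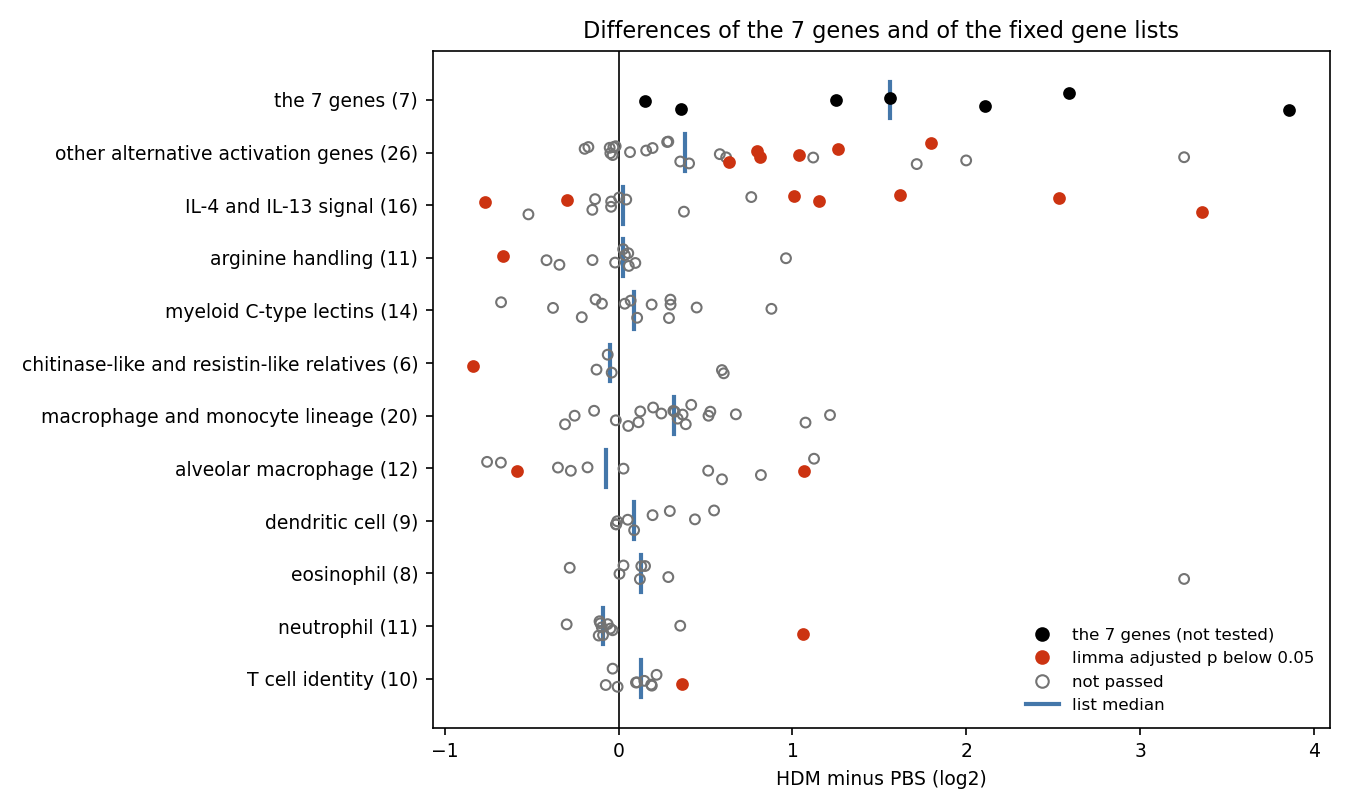
HDM minus PBS difference (log2, horizontal axis) of each gene in the 7-gene set and in 11 fixed lists, with the number of measured genes in brackets; red points passed limma at an adjusted p below 0.05, open points did not, and blue bars mark medians. The 7-gene median is 1.56, against 0.38 for the other alternative activation genes and 0.32 for the macrophage and monocyte lineage.

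The defining genes of the gate and of macrophages were read in the same arrays. Adgre1, the F4/80 gene, had 6.91, 6.96 and 7.44 in PBS and 7.50, 7.02 and 7.95 in HDM and differed by 0.39 (SE 0.24, limma adjusted p = 0.469). Itgam, the CD11b gene, had 7.38, 7.30 and 7.84 in PBS and 7.31, 7.19 and 7.97 in HDM and differed by −0.015 (SE 0.23, adjusted p = 0.984). In both genes the arrays numbered 3 were the highest of their groups, where Retnla, Chil3, Mmp12 and Arg1 were lowest. Array signals have no true zero and no detection call was given in the sources used here, so these values do not say whether the genes were expressed.

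Of 20 measured genes of the macrophage and monocyte lineage, 0 passed with limma, 6 were higher and 0 lower at an unadjusted p below 0.05, and 16 differences were above 0. No share of all genes was counted at that unadjusted level, and the median difference over all genes was −0.0063. The mean log2 signal of the list lay between 7.96 and 8.60 in PBS arrays and between 8.17 and 8.86 in HDM arrays, and the median difference was 0.32. Lyz2, named after its values were seen, had the highest means of the list, 10.76 in PBS and 11.18 in HDM. With the replicate block 5 of the 20 rose, beside 5.95% of all genes. Without both arrays numbered 3, 5 also rose, where 1250 of all 22180 genes did. C1qb, a chain of complement C1q, had 8.04, 7.83 and 9.52 in PBS and 9.66, 9.06 and 10.31 in HDM (difference 1.22, SE 0.46, adjusted p = 0.216, and 0.00312 with the block). Ms4a7, a membrane protein of tissue macrophages, differed by 1.07 (SE 0.33, adjusted p = 0.133, and 0.0256 with the block). The genes of the list with differences below 0 were Itgam and, named after their values were seen, Ly6c2 (−0.31), Cx3cr1 (−0.25) and Cd14 (−0.14). Csf1r, the growth factor receptor of macrophages, was picked after its values were seen and differed by 0.52 (SE 0.25, adjusted p = 0.34, and 0.0488 with the block). The part of such cells in the differences of the 7 genes was not tested.

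Markers of single cell types gave few calls. Of 12 measured alveolar macrophage genes, Itgax, the CD11c integrin chain, rose by 1.06 (SE 0.22, adjusted p = 0.038), Abcg1, a cholesterol exporter, fell by 0.59 (SE 0.10, adjusted p = 0.0193), and 10 did not pass, with a list median of −0.075. Itgax lost the call without HDM replicate 2 or any PBS replicate and Abcg1 without any array numbered 1 or 2 (adjusted p of up to 0.132 and 0.0968). With the block 3 rose and 1 fell, beside 5.95% and 6.01% of all genes. The 12 differences ran from −0.76 to 1.12, and 6 were above 0. Named after their values were seen, Atp6v0d2, a proton pump subunit, and Ctsk, the protease cathepsin K, differed by 1.12 and 0.82 (adjusted p = 0.163 and 0.125, and 0.00521 and 0.02 with the block). Car4 and Plet1, named in the same way, differed by −0.76 and −0.68 (limma adjusted p = 0.54 and 0.217, and 0.0837 and 0.0752 with the block). At an unadjusted p below 0.05, 4 of the list were higher and 3 lower. Without HDM replicate 3, 2 rose and 4 fell. Marco and Siglecf, receptors by which alveolar macrophages are recognised, likewise named after their values were seen, differed by −0.18 (SE 0.10) and 0.03 (SE 0.11). The dendritic cell list (9 measured, median 0.09) had 0 calls in either direction and 0 at an unadjusted p below 0.05, and with the block H2-DMb2 (0.55, adjusted p = 0.408, and 0.0149 with the block) and Cd83 (0.44, adjusted p = 0.495, and 0.0311 with the block), both of antigen-presenting cells, rose. Of 8 eosinophil genes (median 0.13) 0 passed with limma (2 higher and 1 lower at an unadjusted p below 0.05), 1 rose with the block, which was Rnase2a, and 7 differences were above 0. Beside Rnase2a the next in size was Alox15, a lipoxygenase (0.29, adjusted p = 0.227). Epx and Prg2, granule proteins of eosinophils named after their values were seen, differed by −0.28, the one value below 0, and 0.13. Of 11 neutrophil genes Mmp9, a gelatinase also made by other leukocytes, rose by 1.06 (SE 0.11, adjusted p = 0.0041) and the median was −0.089.

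Of 8 mast cell and basophil genes (median 0.019) 0 passed with limma, and 0 at an unadjusted p below 0.05. With the block Hdc, the histamine-forming enzyme, rose (0.56, adjusted p = 0.36, and 0.0233 with the block) and Kit, the stem cell factor receptor, fell (−0.47, adjusted p = 0.451, and 0.0455 with the block). The 4 B cell genes, among them Ms4a1 (0.45, adjusted p = 0.548) and Cd79b (0.33, adjusted p = 0.598), gave 0 calls with limma, 0 at an unadjusted p below 0.05 and 0 with the block, with a median of 0.30 and list means between 7.17 and 7.75 in PBS and between 6.99 and 8.44 in HDM arrays. Of 9 epithelial genes (median 0.14) Cdh1 alone passed with limma, 1 also fell with the block, and the mean log2 signal of the list was between 7.37 and 8.13 in PBS and between 7.60 and 8.20 in HDM arrays. Scgb1a1 and Sftpc, named after their values were seen, had the highest means of that list. The means were 11.64 (Scgb1a1) and 10.47 (Sftpc) in PBS and 11.84 and 10.08 in HDM. Of the T cell list, Cd3d had the lowest means, 10.60 in PBS and 10.82 in HDM, and Cd3e the highest, 12.82 and 12.92. Both were named after their values were seen. The source of the epithelial signals was not tested. The T cell identity list was read for the sorted cells and does not show how much RNA came from other cells. Its median difference was 0.13, and its mean signal lay between 11.98 and 11.998 in PBS and between 12.05 and 12.13 in HDM. Of its 10 measured genes 1 rose with limma and 3 with the block, beside 2.39% and 5.95% of all genes, and 0 fell. Thy1, a surface protein of T cells, rose by 0.36 (SE 0.06, adjusted p = 0.0189, and up to 0.105 without any array numbered 1 or 2), while Cd4 differed by 0.15 (SE 0.07, adjusted p = 0.294) and Ptprc, the CD45 gene, by −0.073 (SE 0.07, adjusted p = 0.655).

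**Figure D4:**
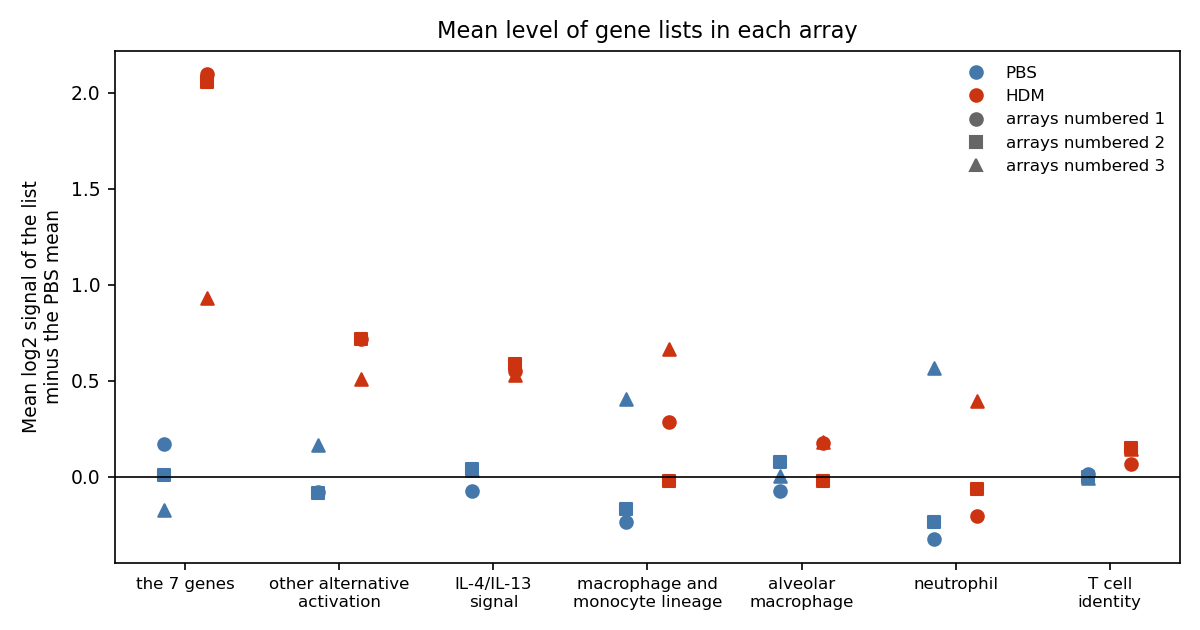
Mean log2 signal of each list per array minus the mean of the 3 PBS arrays (vertical axis); blue marks PBS, red marks HDM, and shapes give the array number. Triangles, the arrays numbered 3, are lowest of their group for the 7 genes and highest of their group for the macrophage and monocyte and the neutrophil lists.

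The genes whose signal followed the mean of the 7 most closely were sought by Pearson's r over the 6 arrays between each gene and the mean of the 7 centred profiles, among 641 of the 771 genes whose SD was at least 0.5, leaving out the 7 themselves, predicted genes, small RNAs, antigen receptor segments and olfactory or vomeronasal receptors. The profiles were not scaled. The mean therefore follows mostly the genes with wide differences, Retnla, Mmp12, Chil3 and Arg1, and Mrc1 and Clec10a count little. The arrays share their group difference, so high values are common, and 77 of the 641 reached 0.95. The 8 highest, with r between 0.988 and 0.996, were Ltb4r1 (a leukotriene B4 receptor), Il17rb (a subunit of the interleukin 25 receptor), Amph (amphiphysin), Tnfsf14 (the cytokine LIGHT), Nmur1 (a neuromedin U receptor), Hnrnpll (a splicing regulator of lymphocytes), Rnase2a and Cpne7 (a copine). Il17rb, for example, had 7.65, 7.56 and 7.28 in PBS and 10.43, 10.11 and 8.54 in HDM, and Ltb4r1 had 7.39, 7.33 and 7.15 in PBS and 9.0, 8.77 and 8.03 in HDM. As in Retnla, HDM replicate 3 lay between the PBS arrays and the other HDM arrays in both. For the deviations from group means, which leave the group difference out, the r of the 8 lay between 0.937 and 0.996, with Rnase2a highest, 19 of the 641 genes reached 0.95, and 3 of the 8 were again among the 8 highest. Without HDM replicate 3, 2 of the 8 were.

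**Figure D5:**
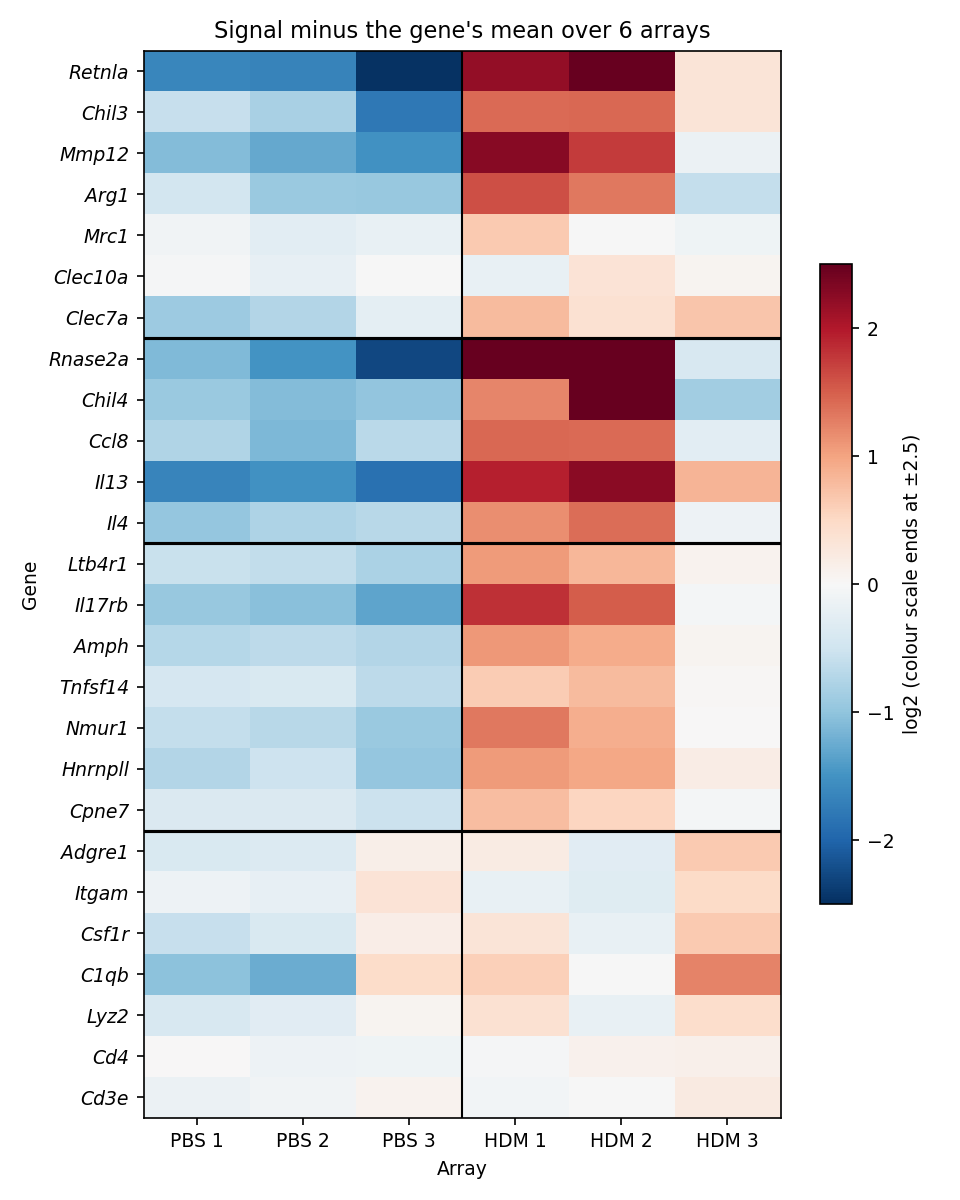
Signal of each gene (rows) in each array (columns) minus the gene's mean over the 6 arrays, in log2 (colour). From top to bottom the blocks hold the 7 genes, inducing cytokines and program genes, genes most like the 7, and myeloid and T cell genes; HDM replicate 3 is paler than the other HDM arrays in the first blocks for Retnla, Mmp12 and Arg1, and C1qb is highest in HDM replicate 3 (10.31).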

How the data were processed

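Per the submitters' processing notes, the authors summarised the arrays with RMA (no version given), and the deposited values are log2 signals per probe set. Of 33960 probe sets, 23521 had exactly 1 gene symbol in the platform annotation, 1814 had several and 8625 had none here. For each of the resulting 22180 genes the probe set with the highest mean over the 6 arrays was used, with no filter on dim genes. Ear11 was matched to Rnase2a through RefSeq synonyms.

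HDM minus PBS was fitted over all genes with limma 3.58.1 (lmFit, eBayes with an intensity trend) in R 4.3.3, as a two-sided test, with p-values adjusted over all 22180 genes by Benjamini-Hochberg. The script was tested on simulated data. The members and lists were chosen with earlier results of these data known. Named were the 7 genes, up to 4 passing genes per list with the largest difference (or the 2 largest where none passed), Adgre1, Itgam, Cd4, Ptprc, Il4 and Il13, and the 8 genes most like the 7; others are marked as picked after their values were seen. Some genes of the lists were not analysed here, and counts are over the measured genes. Counts at an unadjusted p below 0.05 have no share of all genes to be read against, because none was counted. Block counts of every list are to be read beside the 5.95% of all genes that rose and the 6.01% that fell with the block.

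The labels call the arrays biological replicates and do not say whether arrays with the same number share a day or batch. Across genes, the deviations from the group mean of the PBS and HDM array with the same number correlated at 0.43, 0.17 and 0.53, each above the minimum of 0.1. Of the other pairings 1 was above it too, PBS replicate 1 with HDM replicate 2 (0.25), which was higher than PBS replicate 2 with HDM replicate 2 (0.17). The correlations thus do not settle which PBS array belongs with HDM replicate 2. They also depend on each other, since the deviations within a group sum to 0. The numbers were read as pairs by the minimum alone, and blocked values stand beside results whose call they alter. No 2 arrays shared more than 5 identical values.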

Additional observations from a re-analysis of the deposited data

How the results depend on the processing

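The differences of the 7 genes kept their sign and moved by less than 1 SD between replicates under repeated quantile normalization, median centring, averaged probe sets, array weights, the replicate block and the omission of each array or of both arrays numbered 3. Several of these settings could not have moved them so far. The block leaves a difference between balanced groups unchanged, each gene had 1 probe set to average, and omitting 1 of 3 arrays cannot shift a difference by that SD. These settings therefore do not measure stability, and the Retnla difference ran from 3.19 to 4.65 without 1 array. Their median of 1.56 ranged from 1.17 to 2.25 without 1 array. Calls depended more on the setting. Over all genes 531 were higher and 345 lower, and the counts were 914 and 923 with array weights, 1319 and 1334 with the replicate block, 177 to 845 and 41 to 722 without 1 array, and 1250 and 1326 without both arrays numbered 3, a setting chosen after seeing the data. Leaving out genes below the median signal gave 557 lower. Of the 26 other alternative activation genes, 6 rose, 11 with array weights, 10 with the block, 2 to 10 without 1 array and 13 without both arrays numbered 3. Of the 20 macrophage and monocyte genes, 0 rose, 2 with array weights, 5 with the block, 0 to 2 without 1 array and 5 without both arrays numbered 3. Genes at or above 0.95 in likeness numbered 77, 159 without HDM replicate 3 and 19 over deviations from group means. The cause of these shifts was not tested.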
